A study of Homo sapiens with 2 samples.

Results

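Intermediate filament genes were described in HEK293T cells with a stable knockdown of FKBP5. The 10 genes, of 60683 in the count table, were fixed by name for the mixed lineage character of HEK293 cells and were matched by symbol to 1 Ensembl gene each. They are the neuronal filament genes NEFL, NEFM, NEFH, INA and PRPH, the mesenchymal gene VIM, the neural progenitor gene NES, and the simple epithelial keratin genes KRT8, KRT18 and KRT19. HEK293T is a human embryonic kidney line that carries adenovirus 5 and SV40 large T sequences, and both samples were HEK293T cells in which short hairpin RNAs against FKBP5 were stably expressed. FKBP5 encodes an immunophilin that binds HSP90. The data were 1 group of 2 total RNA libraries. Cells with a scrambled control were not analysed here, so levels are given and no effect of the knockdown. The sources used here do not say whether the knockdown cells are 1 clone or a pool, or whether the samples are separate cultures, so their spread may be only technical.

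Intermediate filaments are rope-like polymers of coiled-coil proteins, and cell types differ in which ones they make. Vimentin (VIM) forms filaments alone and is typical of mesenchymal and cultured cells. Keratins pair strictly, 1 type I chain such as KRT18 or KRT19 with 1 type II chain such as KRT8, and these are the keratins of simple epithelia. Neurofilaments are built on the light chain NEFL, with which the medium chain NEFM, the heavy chain NEFH, alpha-internexin (INA) and, in peripheral neurons, peripherin (PRPH) assemble. Nestin (NES) marks neural progenitors and co-assembles with vimentin. HEK293 cells have been described as making neurofilament proteins beside vimentin and keratins, which is why the genes of these lineages are set side by side.

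Sample 1 held 9997706 counts and sample 2 held 21284648, so each value is known more precisely in sample 2. The target gene FKBP5 had 41 and 77 counts (3.95 and 3.52 CPM), where CPM is the read count relative to library size, with no correction for gene length. Means are given ± SD over the 2 samples (n = 2), and intervals are 95% exact Poisson intervals, which cover counting error only. A level of 3 counts was 0.289 CPM in sample 1 and 0.137 CPM in sample 2.

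KRT8 and KRT18 have many processed pseudogenes, copies of the mRNA inserted elsewhere in the genome, so a stretch of KRT8 shows how alike gene and copy are before their counts are read. The 120 coding bases, within 1 exon, are set beside the KRT8 pseudogene with the highest mean CPM, both from GENCODE 29 (GRCh38), 5′ to 3′ on the transcribed strand. Capitals mark the bases at which the pair differs. The KRT8 stretch is at chr12:52904733-52904852 on the minus strand, and that of KRT8P12 at chr3:160567988-160568107 on the plus strand.
KRT8: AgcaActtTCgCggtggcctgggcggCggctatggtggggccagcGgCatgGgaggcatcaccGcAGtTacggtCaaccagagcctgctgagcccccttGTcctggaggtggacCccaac
KRT8P12: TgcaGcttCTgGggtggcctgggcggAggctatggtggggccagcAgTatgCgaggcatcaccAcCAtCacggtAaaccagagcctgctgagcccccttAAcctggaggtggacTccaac
The pair differed at 17 of 120 bases. Over all aligned bases, KRT8P12 was 90.5% identical to KRT8, and KRT18P17, the KRT18 pseudogene with the highest mean CPM, was 93.8% identical to KRT18.

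The neuronal light chain had the most counts of the 10 genes. NEFL, on chromosome 8 (24950955 to 24957110, minus strand, GRCh38), had 3168 and 6311 counts in samples 1 and 2. Its level was 305 CPM (interval 295 to 316) and 289 CPM (282 to 296), with a mean of 297 ± 11.7 CPM. Among 15530 genes averaging 1 CPM or more, 97.2% were lower. VIM, on chromosome 10 (17228259 to 17237593, plus strand), came next with 130 CPM (123 to 137) in sample 1 and 126 CPM (121 to 131) in sample 2. Both samples thus had more than 2 NEFL counts for each VIM count, with ratios of 2.34 and 2.29. The neurofilament and internexin genes together (NEFL, NEFM, NEFH and INA) held 60.9% of the counts of the 10 genes in sample 1 and 60.0% in sample 2. The type III genes VIM and PRPH held 19.6% and 19.7%, the keratin genes 15.3% and 15.5%, and NES 4.33% and 4.81%.

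**Figure D1:**
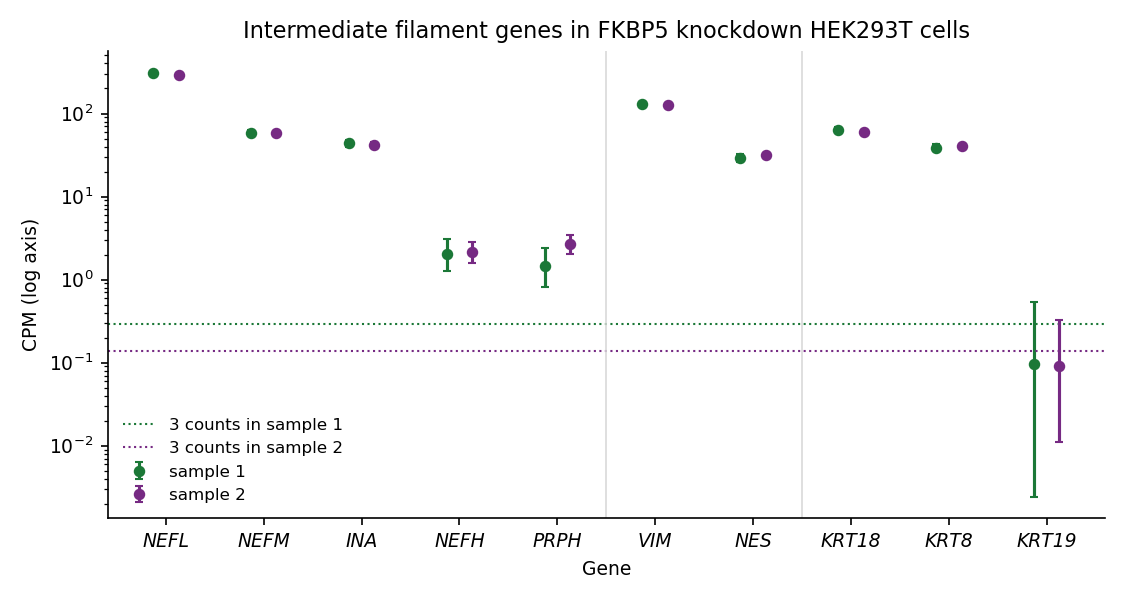
CPM (log axis) of the 10 filament genes in each of the 2 FKBP5 knockdown samples, with 95% exact Poisson intervals as bars (hidden by the point where narrow); dotted lines mark the level of 3 counts. NEFL is highest at 305 and 289 CPM, NEFH and PRPH lie near 2 CPM, and KRT19 lies below both dotted lines.

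The other chains that assemble with NEFL split into a moderate and a low pair. NEFM lies beside NEFL on chromosome 8 (24913012 to 24919098, plus strand). It had 59.0 CPM (54.4 to 63.8) in sample 1 and 58.6 CPM (55.4 to 61.9) in sample 2. INA, which is made early in neurons, lies on chromosome 10 (103277163 to 103290351, plus strand). It had 43.8 CPM (39.8 to 47.97) and 42.3 CPM (39.6 to 45.1). Both were far below the light chain, with a mean NEFL to NEFM count ratio of 5.05 ± 0.174 and a mean NEFL to INA ratio of 6.90 ± 0.110. NEFH, the heavy chain of mature neurons, lies on chromosome 22 (29480230 to 29491390, plus strand) and had only 21 counts in sample 1 and 47 in sample 2. This was 2.02 CPM (1.25 to 3.09) and 2.15 CPM (1.58 to 2.86), and 11.996% of the genes averaging 1 CPM or more were lower. PRPH, the peripheral neuron protein on chromosome 12 (49293252 to 49298686, plus strand), had 15 and 59 counts, or 1.45 CPM (0.809 to 2.38) and 2.6997 CPM (2.06 to 3.48). The intervals of PRPH in the 2 samples overlapped.

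NES, on chromosome 1 (156668763 to 156677397, minus strand), had 303 and 686 counts. Its level was 29.2 CPM (26.0 to 32.7) in sample 1 and 31.4 CPM (29.1 to 33.8) in sample 2. Nestin therefore had 1 count for every 4.46 VIM counts in sample 1 and every 4.02 in sample 2.

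Of the 3 simple epithelial keratins, KRT8 and KRT18 were expressed and KRT19 was not measurable. KRT18, on chromosome 12 (52948871 to 52952901, plus strand), had 63.9 CPM (59.1 to 68.95) in sample 1 and 60.1 CPM (56.9 to 63.5) in sample 2. KRT8, its obligate partner and direct neighbour (52897187 to 52949954, minus strand), had 38.8 CPM (35.1 to 42.8) and 40.7 CPM (38.05 to 43.4). KRT19, a second type I partner of KRT8 that is typical of ducts, lies on chromosome 17 (41523617 to 41528308, minus strand). It had 1 count in sample 1 and 2 in sample 2, with upper interval ends of 0.537 and 0.331 CPM. KRT19 was thus under the level of 3 counts in both samples, and at this depth its presence in a small part of the cells was not detectable.

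Between genes, levels are compared per kilobase, since a longer transcript gives more fragments. With the length of all annotated exons of a gene, NEFL had 68.6 ± 2.704 CPM per kilobase, VIM 24.9 ± 0.582, KRT18 19.3 ± 0.829, NEFM 13.4 ± 0.0670 and INA 13.3 ± 0.313. Lower down came KRT8 at 5.78 ± 0.189 CPM per kilobase, NES at 5.45 ± 0.278, NEFH at 0.552 ± 0.0237, PRPH at 0.476 ± 0.204 and KRT19 at 0.0402 ± 0.00147. The ranges of the 2 samples overlapped for NEFM and INA, for KRT8 and NES and for NEFH and PRPH, so the order within these pairs is not resolved. The ranges of the other neighbours in this order did not overlap.

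The length used moved the levels of VIM, KRT18, KRT8 and KRT19 by more than 1.5 times, KRT19 to 0.0676 CPM per kilobase. The annotated exons of KRT8 cover 6881 bases and its principal transcript (an APPRIS tag) 2126, those of VIM 5158 and 2135, and those of KRT18 3218 and 1562. With principal transcripts, NEFL (72.8 CPM per kilobase) and VIM (60.0) came close, at a ratio of 1.21 in place of 2.76, and their longest transcripts gave 1.51. KRT18 then had 39.7 and KRT8 18.7 CPM per kilobase, which put KRT8 above NEFM (14.6) and INA (13.3). The ratio of KRT18 to KRT8 was 3.34 ± 0.253 with all exons and 2.12 with principal transcripts. The share of the neurofilament and internexin genes in the summed level per kilobase was 63.2% ± 0.434 with all exons and 44.8% ± 0.401 with principal transcripts. Keratin genes had 16.5% ± 0.00888 and 25.9% ± 0.107, and the type III genes 16.7% ± 0.169 and 26.9% ± 0.115. NEFL was the highest of the 10 under each of the 3 lengths, and NEFH, PRPH and KRT19 were the lowest.

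**Figure D2:**
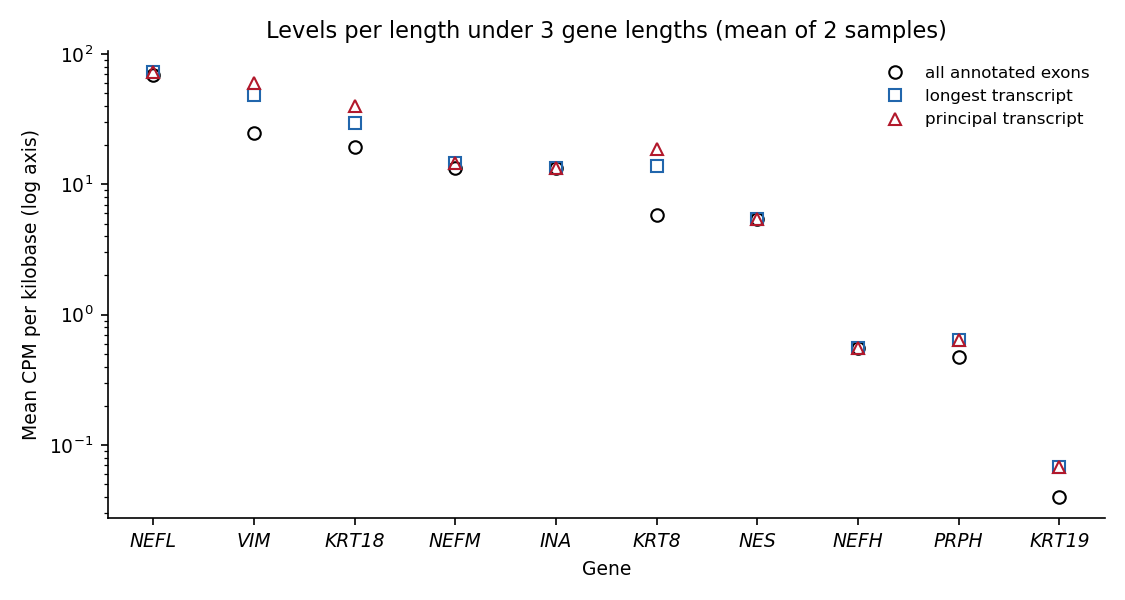
Mean CPM per kilobase (log axis) of the 10 genes over the 2 samples, with the length taken from all annotated exons (circles), the longest transcript (squares) or the principal transcript (triangles). VIM, KRT18 and KRT8 move upward with transcript lengths (KRT8 from 5.78 to 18.7), while NES, INA and NEFH stay in place.

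No filament gene passed the test between the 2 libraries. A 2-sided exact binomial test of the counts compares these libraries, not conditions, and was adjusted by the Benjamini-Hochberg method over the 15530 genes averaging 1 CPM or more. It called 8.71% of those genes (4.29% higher and 4.42% lower in sample 2) and 0 of the 9 filament genes tested, with KRT19 too low to enter. At an unadjusted p under 0.05 it separated 2 of the 9, NEFL and PRPH, and no other kind of test was run. The share of all genes at that unadjusted limit was not computed, so the count of 2 says little about the filament genes. NEFL had a sample 2 to sample 1 ratio of 0.946 (95% exact interval 0.906 to 0.987, adjusted p = 0.0917, exact binomial test). With counts scaled to column totals in place of the deposited library sizes, the NEFL difference passed at an adjusted p = 0.0318 by the same exact test. PRPH had a ratio of 1.87 (1.05 to 3.54, adjusted p = 0.182, exact binomial test), the widest interval among the 9. For VIM the ratio was 0.967 (0.906 to 1.03), for NEFM 0.993 (0.901 to 1.10), for INA 0.967 (0.864 to 1.08) and for NEFH 1.06 (0.623 to 1.87). For NES it was 1.07 (0.938 to 1.23), for KRT8 1.05 (0.92996 to 1.18) and for KRT18 0.941 (0.856 to 1.03). The median log2 difference of CPM + 1 over the 9 genes was -0.01, beside 0.01 over all genes tested. By the test, 667 of all genes were higher and 686 lower in sample 2, and 569 and 885 with column totals.

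**Figure D3:**
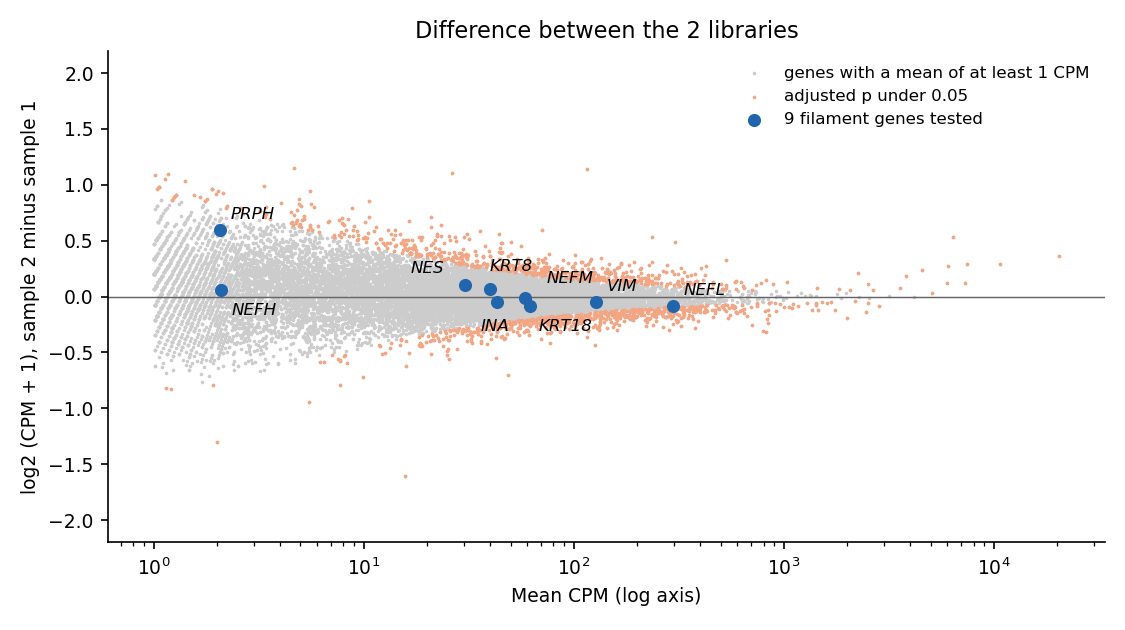
Log2 difference of CPM + 1 between sample 2 and sample 1 against mean CPM (log axis) for the 15530 genes averaging 1 CPM or more (grey), those with an adjusted p under 0.05 (orange) and the 9 filament genes tested (blue, labelled). The 9 genes lie among the grey points, with NEFL at -0.08 and PRPH at 0.60.

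The keratin counts are less certain than the others, since reads can be shared with copies. Of the 50-base stretches in the principal transcript of KRT8, 67.3% occurred in no annotated transcript of another gene, and for KRT18 68.2% did. For NEFL, VIM, NES and INA the value was 100%, for NEFM 99.8%, PRPH 99.7%, KRT19 98.2% and NEFH 97.4%. The table held 51 pseudogenes named after KRT8, 41 of them with a count. Their summed counts were 26.8% of the KRT8 counts in sample 1 and 31.8% in sample 2. KRT8P12, on chromosome 3, had 61 and 96 counts (5.88 and 4.39 CPM), and KRT8P33 had 8 and 26. KRT8P12 was not among the 3 genes sharing the most 50-base stretches with KRT8. Over all KRT8 transcripts (7190 stretches), these were KRT8P3 with 395, KRT8P45 with 144 and KRT8P33 with 128. Of 67 KRT18 pseudogenes, 46 had a count, and their sum was 7.54% and 9.36% of the KRT18 counts. KRT18P17 had 6 and 13 counts and KRT18P7 3 and 13. KRT19P1 had 2 and 0 counts, KRT19P2 1 and 1, and no pseudogene in the table is named after VIM. With their pseudogenes added, KRT8 reached 49.3 and 53.6 CPM and KRT18 68.7 and 65.8 CPM. Whether the pseudogene counts come from the genes or from the copies was not tested.

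Antisense transcripts overlap several of the genes, and the sources used here do not give the strand setting of the counting. The libraries were directional, but whether the counts keep reads of a gene apart from those of its antisense partner is therefore not known. The antisense gene AF106564.1 covers 38.9% of the exonic bases of NEFM and had 10.3 and 10.9 CPM. AC125611.4 covers 56.2% of those of PRPH and had 1.25 and 1.37 CPM, close to the level of PRPH itself. VIM-AS1 covers 12.4% of the VIM exons and had 0.964 and 1.69 CPM. AC107373.2, antisense to NEFL, had 1 and 15 counts, and neither AL133415.1 (at VIM) nor AC000035.1 (at NEFH) had any. KRT8 and KRT18 themselves share 525 exonic bases on opposite strands, 16.3% of the exonic bases of KRT18.

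INA and PRPH, both neuronal and both partners of NEFL, had CPM levels of 43.0 ± 1.01 and 2.07 ± 0.887, and the bases before their start sites are shown for these genes. The sequences are the 250 bases before the RefSeq start (GRCh38.p14), 5′ to 3′ on the coding strand, for INA at chr10:103276888-103277137 and for PRPH at chr12:49294897-49295146, both on the plus strand. Capitals mark matches on either strand to TATAAA (the TATA box), to the motif CCAAT, or to GGGCGG (the GC box). No match to one motif overlaps a match to another here.
INA: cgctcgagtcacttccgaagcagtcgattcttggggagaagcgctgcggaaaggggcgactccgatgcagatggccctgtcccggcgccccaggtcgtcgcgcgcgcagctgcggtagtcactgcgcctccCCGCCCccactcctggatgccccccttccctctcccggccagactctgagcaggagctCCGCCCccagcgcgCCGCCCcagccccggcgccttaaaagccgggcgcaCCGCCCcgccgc
PRPH: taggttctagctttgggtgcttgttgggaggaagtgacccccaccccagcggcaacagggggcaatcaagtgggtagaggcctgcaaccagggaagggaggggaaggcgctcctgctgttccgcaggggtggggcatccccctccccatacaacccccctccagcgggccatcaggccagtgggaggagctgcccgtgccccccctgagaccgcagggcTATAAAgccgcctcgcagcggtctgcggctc
INA had 4 matches to GGGCGG and none to the other motifs, with 30 CG pairs and 72.8% G and C. PRPH had 1 match to TATAAA and none to the others, with 10 CG pairs and 66.8% G and C. Over 35116 such windows, GGGCGG occurred in 42.6%, TATAAA in 10.7% and CCAAT in 32.0%, with a median of 11 CG pairs. The sequence table held 5 of the 10 genes. VIM, with the highest CPM of the 5, had 8 CG pairs, 46.0% G and C and 1 match to GGGCGG. KRT8 had 1 CG pair, 50.4% G and C and no match, and NES 8 CG pairs, 58.0% G and C and 2 matches to GGGCGG. The nearest principal GENCODE start is 25 bases downstream of the RefSeq start of INA and at -1445 bases, upstream, for PRPH. For KRT8 it is 19851 bases downstream, so the KRT8 window does not lie at a principal start. A match is a description of letters and shows no binding.

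Of the rest of the filament family, few keratin genes reached 1 CPM. The 10 genes held 93.6% of the counts of 67 cytoplasmic and lens filament genes in sample 1 and 93.0% in sample 2, leaving out the filament family orphan genes IFFO1 and IFFO2. With these included (69 genes), the shares were 78.5% and 77%. Of the 52 other keratin genes, 50 averaged under 1 CPM, and for 9 both samples were at 0. KRT10, a suprabasal keratin of skin, was the highest of them at 19.95 and 19.7 CPM, which per kilobase of all exons (9.24 ± 0.0907) lay between INA and KRT8. KRT222 had 1.16 and 1.65 CPM and KRT17 0.482 and 0.961 CPM. The 25 other type II keratins had a median of 0.0458 CPM and a highest mean of 0.609 CPM (KRT75), followed by KRT78 at 0.371 and KRT5 at 0.307 CPM. The 27 other type I keratins had a median of 0.0711 CPM. KRT8 was thus the sole type II keratin at or above a mean of 1 CPM, beside the type I genes KRT18, KRT10 and KRT222. Of 7 other cytoplasmic filament genes, IFFO1 had 112 and 117 CPM, IFFO2 26.4 and 28.5 CPM, and SYNM, a large partner of desmin and vimentin, 12.05 and 13.7 CPM. The muscle gene DES had 1.25 and 0.869 CPM and the glial gene GFAP 3.37 and 2.84 CPM. The nuclear lamins, filaments of the nuclear envelope, were higher, with LMNB2 at 635 ± 14.04 CPM, LMNB1 at 309 ± 2.59 CPM and LMNA at 171 ± 0.139 CPM.

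Genes for proteins that anchor filaments were measured next. Of 7 plakin linkers, 6 had a mean of at least 1 CPM, with a list median of 115 CPM. PLEC, which encodes plectin and links vimentin and keratins to other structures, had 393 and 408 CPM. DSP, which ties keratins to desmosomes, had 321 and 328 CPM, and MACF1 156 and 151 CPM. Of 10 desmosome genes, 5 had at least 1 CPM, led by DSG2 at 214 and 213 CPM, JUP at 128 and 124 CPM and DSC3 at 90.1 and 80.4 CPM. The other 5, among them DSG1 and DSG3, had means under 1 CPM. Tested between the libraries were 6 plakin, 5 desmosome, 3 lamin, 6 other filament and 2 other type I keratin genes, and none was called. Of all genes tested, 8.71% were called, so 0 calls among so few genes says little about them.

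Each of the neuronal, mesenchymal and epithelial lineages had markers at 1 CPM or more, but not every neuronal or epithelial marker reached it. Of 19 neuronal markers, 15 had a mean of at least 1 CPM and 8 at least 10, with a median of 5.19 CPM. The ubiquitin hydrolase gene UCHL1 had 283 and 264 CPM, the neuronal enolase gene ENO2 107 and 127 CPM and the tau gene MAPT 48.0 and 53.7 CPM. The neuronal tubulin gene TUBB3 had 0.675 and 1.14 CPM, STMN2 0.289 and 0.229 CPM, and DCX 0 and 7 counts. Of 9 neural transcription regulators, 7 reached 1 CPM, led by POU4F1 (210 and 226 CPM), POU3F2 (119 and 119 CPM) and RCOR1 (69.5 and 71.5 CPM). REST, the repressor of neuronal genes, had 36.8 and 37.2 CPM. Of 12 mesenchymal markers, all 12 reached 1 CPM, with a median of 21.1 CPM, led by SPARC (185 and 190 CPM), FN1 (113 and 117 CPM) and CDH2 (99.4 and 101 CPM). Of 13 epithelial markers, 10 reached 1 CPM, with a median of 4.58 CPM. The other 3, CLDN4, GRHL2 and CDH16, had means of 0.838, 0.165 and 0.0458 CPM. TJP1 had 168 and 164 CPM, the epithelial splicing factor gene ESRP2 76.4 and 76.5 CPM and OCLN 19.5 and 16.0 CPM, while CDH1, the epithelial cadherin gene, had 4.72 and 4.44 CPM. The median over all 15530 genes tested was 23.5 CPM, but these leave out genes under 1 CPM, which the list medians include. Of 5 kidney lineage markers, PAX2 had 20.7 and 21.8 CPM, WT1 9.35 and 9.20, LHX1 8.10 and 9.52, EYA1 3.18 and 2.61 and PAX8 0.0964 and 0.458 CPM.

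**Figure D4:**
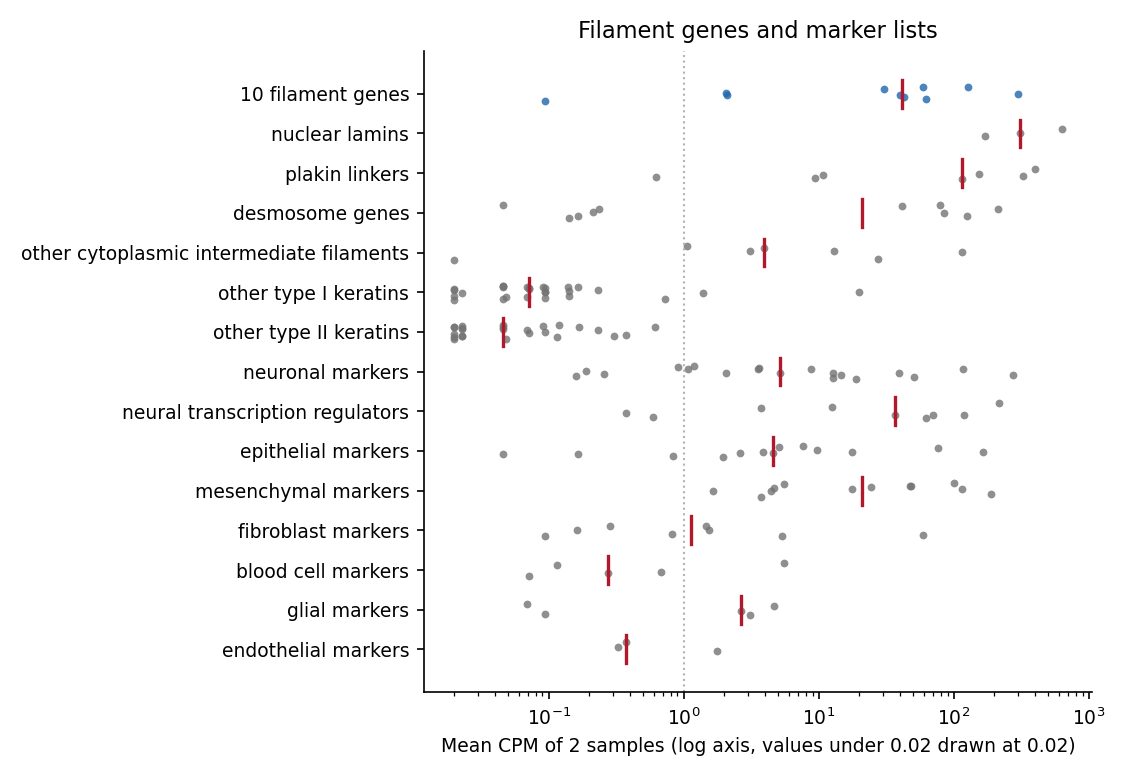
Mean CPM over the 2 samples (log axis) of each gene in the 10 filament genes and 14 gene lists, with the list median as a red line and 1 CPM as a dotted line. The keratins outside the 10 genes cluster far below 1 CPM (medians 0.0711 and 0.0458), while the lamins have the highest median, 309.

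Markers of endothelial cells summed to under 10 CPM in each sample, and those of glia and fibroblasts were higher. Among blood cell markers, CD14 had 5 and 19 counts, PTPRC 1 and 10, CD3E 0 and 5 and LYZ means of 0.0711 CPM. The 3 endothelial markers summed to 1.93 and 3.02 CPM, with VWF at 1.45 and 2.10, PECAM1 at 0.289 and 0.458 and CDH5 at 0.193 and 0.458 CPM. The 5 glial markers summed to 10.4 and 10.8 CPM, led by MBP (4.34 and 4.99 CPM) and GFAP. AQP4 had 2.60 and 2.75 CPM and S100B 0 and 3 counts. The 8 fibroblast markers summed to 64.1 and 74.7 CPM, of which COL1A1 gave 54.0 and 65.4 CPM, COL3A1 5.98 and 4.71 and PDGFRA 1.16 and 1.92 CPM. The fibroblast markers DCN and COL1A2 had 1 and 2 and 4 and 4 counts. What part other cells have in the filament levels was not tested. In bulk RNA, few cells with much of a transcript and many cells with little of it cannot be told apart.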

How the data were processed

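Total RNA was taken with TRIzol and a modified NEBNext method gave directional libraries, per the labels. The authors deposited 1 table of counts per Ensembl gene and 1 file of CPM for each sample. Per the submitters' processing notes, the tools were STAR 2.7.7a and edgeR, and the build GRCh38. For the counting program, strand setting and annotation, nothing was given in the sources used here. In the deposited CPM files, counts are divided by a library size 3.78% (sample 1) and 2.68% (sample 2) above the column totals.

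Each column was given to the sample whose own CPM file has the same header. Exact binomial tests (doubled smaller tail) used these library sizes, with Benjamini-Hochberg adjustment over genes averaging 1 CPM or more, and were tested on simulated data. Log2 differences used a pseudocount of 1 CPM. Lengths, positions and overlaps came from GENCODE 29, which held 96.4% of the gene IDs. Symbols were found for 99.5%. Shared stretches of 50 bases were searched on the transcribed strand. Python 3.11.15, scipy 1.17.1, pandas 2.3.3 and edgeR 4.0.16 (TMM) were used.

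The members, the 18 other gene lists and all rules were chosen with earlier results of these data known. Named were all members, of each list the 3 genes with the highest mean CPM (all in lists of 5 or fewer), the 2 highest pseudogenes per parent, overlapping genes and FKBP5. Other named genes were chosen after their values were seen, and a few genes and sequences that the rule covers are not reported here. With 2 samples of 1 group, no genes of like pattern were named. Alternatives were other scalings, pseudocount, filter, detection limit and lengths, pseudogenes added, and leaving out each sample.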

Additional observations from a re-analysis of the deposited data

How the results depend on the processing

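Of 15606 genes tested, 1454 were called with column totals and 1453 with TMM (trimmed mean scaling by edgeR). With no filter beyond 1 count, 942 of 41325 were called, beside 1353 of 15530 (8.71%) with the main settings. Filament genes called were 1 (NEFL) with column totals and 1 with TMM (adjusted p = 0.0382, exact binomial test), where the log2 difference of NEFL was -0.10 and -0.09, and 0 with the other settings. The range of NEFL's adjusted p over the settings was 0.0318 to 0.235. The median level of the 10 genes was 41.4 CPM, 42.7 with column totals and 42.7 with TMM. Per kilobase the median was 9.55, with 13.6 for longest transcripts and, chosen after the data were seen, 13.97 for principal transcripts. Without either sample in turn it ranged from 9.51 to 9.55. With a detection limit of 0.5 CPM in place of 1 CPM, the count of genes reaching it stayed at 9, and KRT19 was under both limits. With the scaling, the set of genes tested changed too, from 15530 to 15606. What part each had in the NEFL call was not tested. No paired analysis was possible because there is 1 group. Depth limits NEFH, PRPH and KRT19, whose intervals are wide.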

Other observations

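Enzymes that phosphorylate filament proteins were all expressed. Of 11 such kinase genes, 11 had a mean of at least 10 CPM, with a median of 108 CPM. AURKB, which phosphorylates vimentin at the cleavage furrow, had 243 and 233 CPM, the mitotic kinase gene PLK1 203 and 185 CPM and MAPK3 177 and 186 CPM. The binomial test called 3 of the 11, all lower in sample 2, beside 4.42% of all genes. These were PLK1 (adjusted p = 0.0109, exact binomial test), PRKACA (116 and 100.1 CPM) and CDK5 (75.5 and 65.8 CPM), a kinase of neurofilament tails. PRKACA and CDK5 were named after their values were seen.

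Of 5 genes for chaperones and turnover of filaments, 3 had at least 100 CPM. DNAJB6, which binds keratins, had 228 and 223 CPM, STUB1 123 and 115 CPM and HSPB1 123 and 137 CPM (adjusted p = 0.0207, exact binomial test). CRYAB had 0.193 and 0.275 CPM. Of 13 chromaffin and adrenocortical markers, 4 had a mean of at least 1 CPM. GATA3 had 33.7 and 28.004 CPM, HAND2 13.3 and 14.4 CPM and CHGB 12.4 and 14.7 CPM. TH and MC2R had no count in either sample, for which the upper ends of the exact Poisson intervals are 0.356 CPM and 0.169 CPM.

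Calls between the libraries in the marker lists were 1 higher (ENO2, adjusted p = 5.2e-05, exact binomial test) and 1 lower (UCHL1, 0.0326) of 15 neuronal markers tested, beside 4.29% higher and 4.42% lower of all genes. TAGLN, a mesenchymal marker named after its values were seen, had 2.51 and 6.77 CPM in samples 1 and 2 (adjusted p = 2.5e-05, exact binomial test). COL1A1 was higher in sample 2 (adjusted p = 0.00303, exact binomial test). None was called of 7 neural regulator, 10 epithelial, 4 kidney, 4 chromaffin or adrenocortical, 3 glial and 1 endothelial genes tested, beside 8.71% of all genes. With so few genes, 0 calls says little about them.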
